A study of Saccharomyces cerevisiae with 20 samples.

Results

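The genes of 10 proteins that move along microtubules, cross-link them or control the growth of their ends were followed in budding yeast: the kinesins CIN8, KIP1, KIP2 and KIP3, the dynein heavy chain DYN1, the cross-linker ASE1, and the microtubule-associated proteins STU1, STU2, BIM1 and BIK1. They were taken by their systematic names from a list of such proteins, and all 10 were found among the 6532 features of the deposited tables. The rule itself uses no measured value, but the list was chosen with earlier results of these data known. Read levels of 9 of the 10 genes could be tested. KIP2 could not, because it had 0 to 4 reads in a library.

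The data were PAT-seq libraries, in which short reads are taken from the 3′ end region of polyadenylated RNA. Reads that run into the poly(A) tail are counted apart as tailed reads, and other reads do not show the transcript end itself. The 20 libraries came from 1 culture of the wild type (WT, W303a) and 1 culture of a strain labelled delta_set1 (set1Δ), which lacks the histone H3 lysine 4 methyltransferase gene SET1. Both cultures grew in rich YPD medium at 30 °C, and both were sampled once while growing asynchronously. Both were then arrested with 5 µg/ml of the mating pheromone α-factor (about 2 h, with 95% or more of the cells unbudded by microscopy), washed, and sampled every 15 min from 0 to 120 min, which gave 1 library per strain and time. Each strain being 1 culture, the p-values for a strain difference weigh it against its variation among time points. For changes over time and in arrest, the disagreement between the courses of the 2 cultures serves as the error. For differences in course it is the scatter around smooth curves of time. Variation among cultures of a strain stays unmeasured in all of them. In bulk RNA, fewer cells in a phase and less RNA per cell cannot be told apart.

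In budding yeast the nucleus divides without breaking down, and the spindle forms between spindle pole bodies embedded in the nuclear envelope. Kinesin-5 motors slide antiparallel microtubules apart, a midzone bundle holds the elongating spindle together, and motors and plus-end binding proteins on the cytoplasmic microtubules place the nucleus at the bud neck. Many of these proteins are made or destroyed at set points of the cell cycle, so the phase in which their mRNAs are most abundant has long been of interest.

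Libraries held 476565 to 2413354 reads, with a median of 1524255, and the 10 genes together had 206 to 1120 reads in a library. A count of 3 reads corresponded to 1.22 to 5.73 CPM, the reads of a gene relative to the scaled size of its library (scaling by trimmed mean of M-values). Reads of SET1 lay between 30.1 and 64.9 CPM in WT and between 5.85 and 15.1 CPM in set1Δ (log2 difference -2.16 ± 0.13 SE, adjusted p = 6.36e-08, edgeR quasi-likelihood test). In the WT libraries of 105 and 120 min 51.3% and 32.2% of the reads carried a tail. The share was 58.0% to 91.7% in the other WT libraries and 52.4% to 76.3% in set1Δ, so by share only 120 min lay far from all others. The scaling factors of the WT libraries of 105 and 120 min were the lowest of all, 0.817 and 0.621. For the results on members that rest on these libraries, values without them are given as well. Of the a-cell markers, STE2 lay between 249 and 1013 CPM in WT and between 59.6 and 1019 CPM in set1Δ. Of the 3 markers of the opposite mating type, STE3 lay between 0 and 2.22 CPM in WT and 0 and 5.05 CPM in set1Δ, MF(ALPHA)1 between 0 and 2.26 and 0 and 9.14 CPM, and SAG1 between 6.77 and 25.2 and 12.3 and 28.7 CPM.

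Upstream sequence is shown for KIP1 and KIP3, whose reads changed over time after release, and for CIN8, the kinesin-5 partner of KIP1. Each stretch runs from 250 to 101 bases before the start codon, 5′ to 3′ on the strand of the gene, read from the RefSeq assembly R64. Capitals mark matches to the motifs named after the sequences.
KIP1 (chrII:101636-101785, plus strand): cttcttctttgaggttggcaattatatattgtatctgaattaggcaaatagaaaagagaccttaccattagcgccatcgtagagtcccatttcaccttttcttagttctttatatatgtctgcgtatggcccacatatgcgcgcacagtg
CIN8 (chrV:39638-39787, minus strand): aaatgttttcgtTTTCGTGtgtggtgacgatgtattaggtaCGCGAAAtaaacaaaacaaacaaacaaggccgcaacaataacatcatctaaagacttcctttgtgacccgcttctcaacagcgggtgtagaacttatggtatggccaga
KIP3 (chrVII:84635-84784, plus strand): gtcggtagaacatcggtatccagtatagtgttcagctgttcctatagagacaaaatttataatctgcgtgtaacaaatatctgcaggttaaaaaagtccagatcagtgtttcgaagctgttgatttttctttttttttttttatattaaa

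Searched on both strands of the 250 bases before each start codon, the MCB motif ACGCGT was present in 2.89% of 6020 gene promoters, the SCB motif CNCGAAA in 12.5%, the Forkhead motif GTAAACA in 5.86% and the Ste12 motif TGAAACA in 6.05%. MCB and SCB motifs are bound by the late G1 regulators MBF and SBF, Forkhead motifs by regulators of the G2/M genes, and Ste12 motifs by the pheromone-response regulator. CIN8 held 2 SCB matches, at 238 to 232 and 209 to 203 bases before the start codon, which did not overlap each other. The windows of KIP1 and KIP3 held none of these letter strings. Other forms of the motifs were not searched, so sites that differ from these strings are not excluded. Whether the matches in CIN8 bear on its timing was not tested.

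After release, the reads of KIP1, KIP3, STU2 and BIM1 changed over time. These were 4 of the 9 genes tested, while 14.1% of the 5060 tested features were called (edgeR quasi-likelihood F-test of 15 to 120 min against 0 min, Benjamini-Hochberg adjusted p below 0.05, both strains fitted with 1 profile). KIP1, KIP3 and STU2 were high at 30 to 45 min, lower at 75 min and high again by 105 min. BIM1 had its highs at other times. CIN8, DYN1 and ASE1 passed only without adjustment, and STU1 and BIK1 did not.

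**Figure D1:**
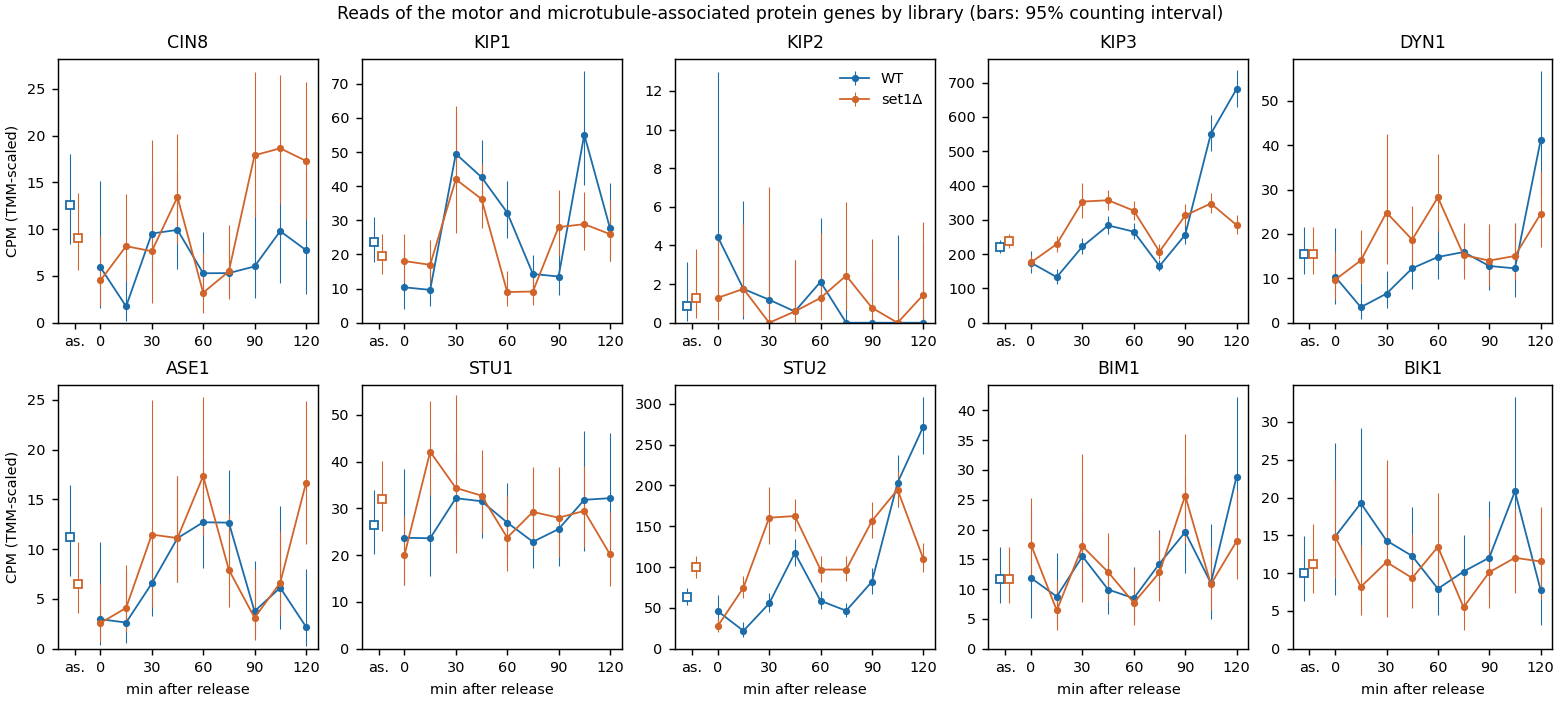
Reads of each of the 10 genes in CPM on a linear axis against minutes after release, in WT (blue) and set1Δ (orange). Open squares marked "as." are the asynchronous cultures and bars are 95% counting intervals of single libraries. KIP1, KIP3 and STU2 show highs at 30 to 45 min and again late, the WT values of KIP3 and STU2 at 105 and 120 min stand above their other libraries, and KIP2 lies near 0.

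The kinesin-5 motor KIP1 (YBL063W, chrII:101886-105221, plus strand, 1 uninterrupted coding exon, as for all 10 genes) works with CIN8 to separate the spindle poles. Over the 10 WT libraries KIP1 had a lowest level of 9.63 CPM, a median of 25.8 and a highest of 55.1, and over the 10 set1Δ libraries 8.99, 22.7 and 42.0 CPM. Its early high fell at 30 min in both strains, at 49.5 CPM in WT (83 reads, 95% counting interval 39.4 to 61.3) and 42.0 in set1Δ, against 10.4 and 18.1 CPM at 0 min. At 60 min KIP1 was at 32.3 CPM in WT and at 8.99 CPM in set1Δ. In the joint fit KIP1 stood 1.54 log2 units above 0 min at 30 min, -0.40 relative to it at 75 min and 1.36 above it at 105 min (adjusted p over time = 0.0468, edgeR quasi-likelihood test). This call was lost in 7 of the 10 fits that left out 1 time point (adjusted p of 0.0629 to 0.118), without the WT libraries of 105 and 120 min (0.0691), and for a smooth curve of time within WT (0.0521) or set1Δ (0.238). The 3′ end of KIP1 faces that of SKT5, which lies 94 nt beyond it on the opposite strand. The sources used here do not give the strand setting of the counting, so reads of these 2 genes may not be separated.

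CIN8 (YEL061C, chrV:36535-39537, minus strand), the other kinesin-5, had few reads: 2 to 29 in a WT library and 4 to 31 in a set1Δ library. Its level ranged from 1.75 to 12.5 CPM in WT (median 6.89) and from 3.21 to 18.7 CPM in set1Δ (median 8.64), and the ranges of the strains overlapped. Relative to 0 min the fitted level was 1.27 log2 units higher at 45 min, -0.11 at 60 min and 1.58 higher at 105 min. The change over time did not pass (p = 0.0446, adjusted p = 0.163, edgeR quasi-likelihood test). In set1Δ the highest levels came late, at 17.9, 18.7 and 17.3 CPM from 90 to 120 min, while WT had 6.02, 9.80 and 7.77 CPM at those times.

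KIP3 (YGL216W, chrVII:84885-87302, plus strand) encodes the kinesin-8 that walks to plus ends and shortens microtubules there. With 118 to 614 reads in a WT library and 185 to 611 in a set1Δ library, it had the most reads of the 10 genes. WT levels ran from 133.0 CPM at 15 min through a median of 239.5 to 681.5 CPM at 120 min, and set1Δ levels from 176.2 CPM at 0 min through 298.9 to 357.2 CPM at 45 min. Up to 60 min, both strains were highest at 45 min, and both had a low at 75 min of 165.4 CPM in WT and 207.3 in set1Δ. The change over time passed narrowly (adjusted p = 0.0494, edgeR quasi-likelihood test), and the call was lost in 8 of the 10 fits that left out 1 time point (0.0558 to 0.121). It passed with an adjusted p of 0.00751 when 105 and 120 min were left out, where 19.2% of features were called. On tailed reads without those times, KIP1, KIP3 and STU2 were called over time (adjusted p of 5.03e-04 to 0.0137), beside 16.4% of features.

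STU2 (YLR045C, chrXII:235037-237703, minus strand) encodes the yeast XMAP215 protein, a microtubule polymerase that adds tubulin at plus ends and at kinetochores. Its lowest, median and highest levels were 21.9, 61.2 and 271.9 CPM in WT and 27.8, 104.9 and 194.9 CPM in set1Δ. From the lowest to the highest WT library this was 12.4-fold, and 5.37-fold without 105 and 120 min. From 0 to 45 min STU2 went from 46.0 through 21.9 and 55.4 to 117.4 CPM in WT, and from 27.8 through 74.9 and 160.5 to 162.5 CPM in set1Δ. It then stood at 46.5 and 96.9 CPM at 75 min. The joint fit placed it 1.95 log2 units above 0 min at 45 min and 2.49 above it at 105 min (adjusted p = 0.0265, edgeR quasi-likelihood test). The call was lost without 0 min (0.0706), without 105 min (0.0553) and with no filter on low counts (0.0528).

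BIM1 (YER016W, chrV:188277-189311, plus strand) encodes the EB1 protein that tracks growing plus ends. Its levels were 8.46 to 28.9 CPM in WT (median 11.8) and 6.44 to 25.7 CPM in set1Δ (median 12.8). Both strains were low at 15 min (8.75 and 6.44 CPM) and at 60 min (8.46 and 7.70 CPM), and both were high at 90 min (19.6 and 25.7 CPM). The fitted differences from 0 min were -1.03 at 15 min, -0.91 at 60 min and 0.56 at 90 min on the log2 scale (adjusted p = 0.0285, edgeR quasi-likelihood test). With 8 to 35 reads in a library, the 95% counting intervals of neighbouring times overlapped for all but 1 pair. The call did not hold on reads with a tail (adjusted p = 0.104) or for a smooth curve of time within either strain (adjusted p = 0.516 in WT and 0.848 in set1Δ).

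ASE1 (YOR058C, chrXV:433688-436345, minus strand) encodes the PRC1-type protein that bundles antiparallel microtubules in the spindle midzone. At 0 min its level was 2.97 CPM (WT) and 2.58 CPM (set1Δ), 12.7 and 17.3 CPM at 60 min, and 3.76 and 3.11 CPM at 90 min. Up to 60 min both strains were thus highest at 60 min, where KIP1, KIP3 and STU2 were highest at 30 or 45 min. The levels of ASE1 at 45 min were 11.1 CPM in both strains, and WT had 12.7 CPM at 75 min as well. The 95% counting intervals of 45 and 60 min overlapped in each strain, and times of highs were not compared by a test. At 120 min WT had 2.22 CPM from 2 reads and set1Δ had 16.6 CPM from 23 reads. The fitted level was 2.45 log2 units above 0 min at 60 min, but the change over time did not pass (p = 0.0156, adjusted p = 0.0844, edgeR quasi-likelihood test). The ASE1 call passed with DESeq2 (adjusted p = 0.0161) and without 105 and 120 min (adjusted p = 0.0102, edgeR).

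DYN1 (YKR054C, chrXI:535647-547925, minus strand) encodes the heavy chain of cytoplasmic dynein, which pulls the spindle into the bud neck from the cell cortex. Its lowest, median and highest levels were 3.50, 12.5 and 41.1 CPM in WT and 9.68, 15.4 and 28.3 CPM in set1Δ. The set1Δ high was at 60 min and the WT high at 120 min, where the next highest WT library had 15.9 CPM. The change over time did not pass in the joint fit (adjusted p = 0.172, edgeR quasi-likelihood test), and passed for a smooth curve within WT alone (adjusted p = 0.00251). That smooth curve includes the WT 105 and 120 min libraries, and 1977 of the 5060 tested features were called by it.

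STU1 (YBL034C, chrII:153848-158389, minus strand), the CLASP protein that stabilizes overlapping spindle microtubules, was the flattest of the 9 in WT. It had 22.9 to 32.2 CPM in WT (median 26.7) and 20.0 to 42.1 CPM in set1Δ (median 29.4), with an adjusted p over time of 0.681 (edgeR quasi-likelihood test). BIK1 (YCL029C, chrIII:68599-69921, minus strand), the CLIP-170 protein of plus ends and kinetochores, ranged from 7.77 to 20.8 CPM in WT (median 12.2) and from 5.49 to 14.8 CPM in set1Δ (median 11.4), with an adjusted p of 0.692. KIP2 (YPL155C, chrXVI:257216-259336, minus strand), the kinesin that carries BIK1 to plus ends, had 14 reads over the 10 WT libraries and 18 over the 10 set1Δ libraries. Its highest level, 4.45 CPM in WT at 0 min, was the floor of 3 reads in that library, so no course over time was detectable at this depth.

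The courses were set beside those of 8 histone genes, which mark S phase, and of 7 measured genes of a G2/M list. Histone genes were highest at 30 min in both strains, with a mean z-score of 1.05 in WT and 1.25 in set1Δ, and high again at 90 min (0.91 and 1.04). The G2/M genes were highest at 60 min, at 1.30 and 1.21. KIP1 correlated with the histone profile at r = 0.74 in WT and 0.84 in set1Δ over 9 libraries each, CIN8 at 0.67 and 0.76, STU2 at 0.59 and 0.81, and KIP3 at 0.55 and 0.75. STU1 correlated with it at 0.80 in WT and 0.31 in set1Δ, on the narrow range given above. In WT KIP3 correlated as closely with the G2/M profile (0.55, and 0.60 in set1Δ), and STU2 had 0.54 and 0.50 with it. ASE1 correlated with the G2/M profile at 0.52 in WT and 0.89 in set1Δ, and DYN1 at 0.75 and 0.77. BIM1 reached at most 0.45 with either profile, and BIK1 went from -0.70 with G2/M in WT to 0.07 in set1Δ. With the mean profile of a list of 8 G1/S genes, CIN8, which held the SCB matches, correlated at 0.06 in WT and 0.21 in set1Δ. Without 105 and 120 min (7 libraries each), the histone coefficients were 0.72 and 0.84 for KIP1, 0.77 and 0.72 for KIP3, and 0.71 and 0.78 for STU2, and the G2/M coefficients of ASE1 were 0.89 and 0.88. These coefficients are descriptions, because the points of a strain come from 1 culture in time order and share library depth and scaling.

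**Figure D2:**
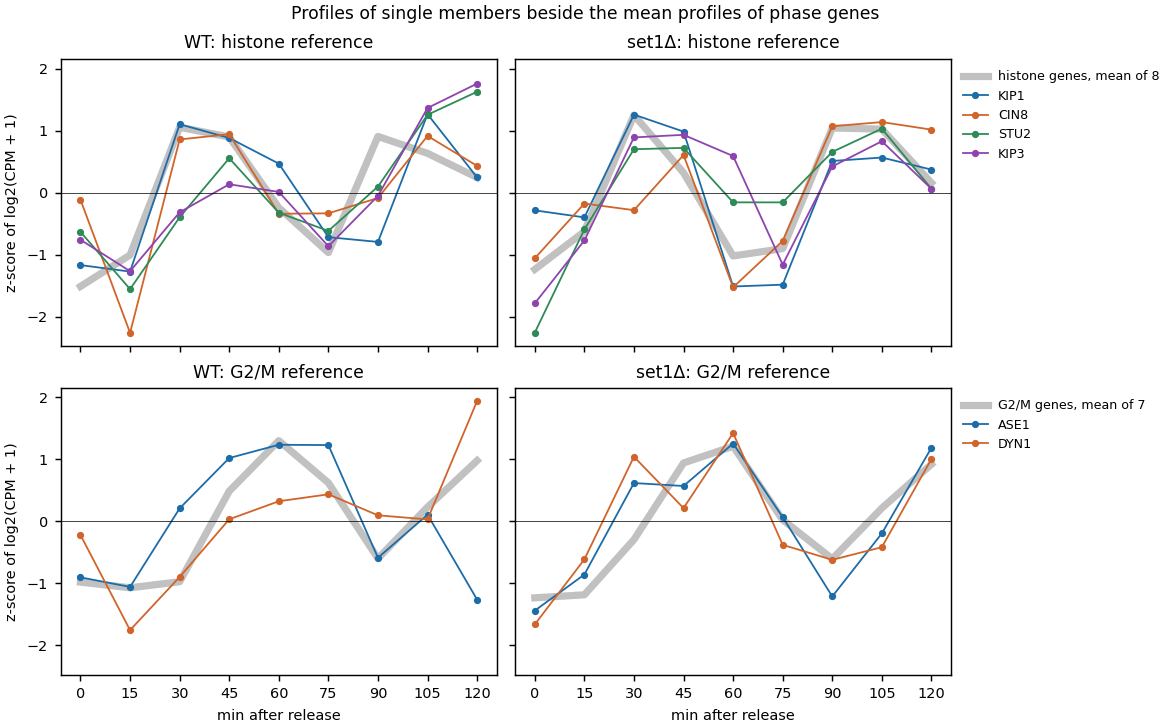
Z-scores of log2(CPM + 1) within a strain against minutes after release, with WT on the left and set1Δ on the right. The thick grey line is the mean of 8 histone genes (top) or 7 G2/M genes (bottom), and each thin line is 1 gene. KIP1 and the histone mean are both highest early at 30 min, while ASE1 is highest early at 60 min with the G2/M mean, except that WT ASE1 is low at 120 min. In WT at 90 min the histone mean is at 0.91 and KIP1 at -0.80, and the late high of KIP1 is at 105 min.

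Between members, log2 levels centred within strain over the 18 libraries after release were most alike for KIP3 and STU2 (r = 0.93). CIN8 and KIP1 had r = 0.71, and DYN1 had r = 0.71 with KIP3. Among all tested features, the courses nearest to STU2 were those of NNF1 (0.96), KIP3 (0.93) and DSN1 (0.90), and NNF1 was also nearest to KIP3 (0.95), followed by SLC1 (0.94) and DIF1 (0.93). NNF1 and DSN1 encode subunits of the MIND complex of the kinetochore. Nearest to KIP1 were AIM34 (0.93), GTT3 (0.86) and MFB1 (0.85), and nearest to BIM1 were IBA57 (0.76), QRI7 (0.75) and RPL21B (0.74). Over the 14 libraries without 105 and 120 min, r was 0.88 for KIP3 and STU2, 0.71 for CIN8 and KIP1, 0.95 for STU2 and NNF1, and 0.89 for KIP3 and NNF1. Other pairs depended on the late times: r of ASE1 and DYN1 went from 0.35 over 18 libraries to 0.76, above CIN8 and KIP1. That of ASE1 and KIP3 went from 0.09 to 0.57.

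Between WT and set1Δ, 0 of the 9 tested genes were called for a difference in read level when all 20 libraries were used, while 19% of the 5060 features were called, 8.44% higher in set1Δ and 10.5% lower. None of the 9 reached an unadjusted p below 0.05 (edgeR quasi-likelihood test with time as a block), and DESeq2 also called 0. The median log2 difference of the 9 was 0.09, against -0.01 over all tested features. The largest was that of STU2, at 0.51 ± 0.24 (SE, adjusted p = 0.148), which was higher in set1Δ at 7 of 10 time points. CIN8 had 0.43 ± 0.26 (adjusted p = 0.266) and DYN1 0.38 ± 0.23 (adjusted p = 0.261). ASE1 had 0.16 ± 0.28, KIP3 0.09 ± 0.17, STU1 0.08 ± 0.14, BIM1 0.002 ± 0.17, KIP1 -0.23 ± 0.22 and BIK1 -0.24 ± 0.21, each with an adjusted p of 0.436 to 0.995.

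STU2 and KIP3 differed between strains when the 105 and 120 min libraries were left out of both. Over the remaining 8 time points STU2 had a lowest, median and highest level of 21.9, 57.1 and 117.4 CPM in WT and 27.8, 98.2 and 162.5 CPM in set1Δ. It was higher in set1Δ at 7 of 8 times, all but 0 min, by 0.82 ± 0.19 log2 units (adjusted p = 0.00701, edgeR quasi-likelihood test). KIP3 had 133.0, 221.5 and 283.9 CPM in WT and 176.2, 275.4 and 357.2 CPM in set1Δ. It was higher in set1Δ at 8 of 8 times, by 0.35 ± 0.10 log2 units (adjusted p = 0.0191, same test). The 95% counting intervals of KIP3 in the 2 strains overlapped, however, at 0 min, at 90 min and in the asynchronous pair (220.7 CPM in WT and 238.0 CPM in set1Δ). The ranges of the strains overlapped for both genes. These were 2 of 9 genes, beside 13% of 5084 features called higher in set1Δ and 13.9% called lower without those times. Counting only reads with a tail, the differences were 0.81 ± 0.17 for STU2 (adjusted p = 0.00201) and 0.35 ± 0.11 for KIP3 (adjusted p = 0.0208), where 12% of features were called higher. The strains were compared at equal minutes, not at matched phases. At 15 min the G1/S list had a mean z-score of 0.37 in WT and 1.53 in set1Δ. The G2/M list had 0.49 and 0.94 at 45 min, and the histone list 1.05 and 1.25 at 30 min. STU2 differed most at 15 and 30 min, by 1.73 and 1.52 log2 units. The part of such shifts in phase in the differences of STU2 and KIP3 was not tested.

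**Figure D3:**
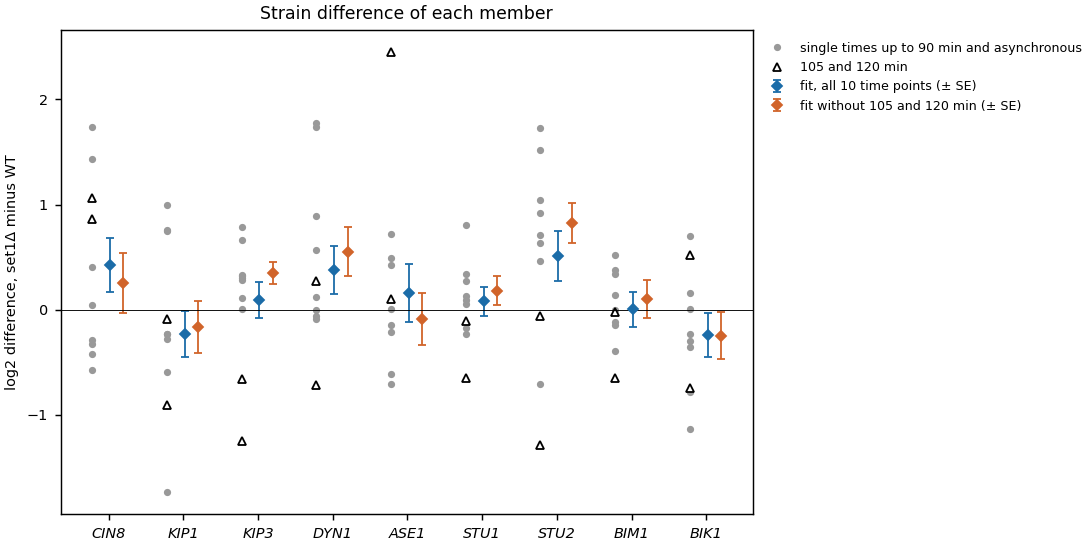
Log2 difference in read level, set1Δ minus WT, for the 9 tested genes. Grey points are single time points up to 90 min and the asynchronous pair, open triangles are 105 and 120 min, and diamonds are fitted differences with SE over all 10 time points (blue) or without 105 and 120 min (orange). For KIP3 and STU2 the triangles lie below 0 and the orange diamonds above the blue ones.

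The strains also differed in the shape of the course for KIP3 (adjusted p = 0.00662) and STU2 (adjusted p = 5.86e-04, edgeR quasi-likelihood test of the strain-by-spline terms over the 18 libraries after release), 2 of 9 genes beside 12.4% of features. At 105 and 120 min KIP3 had 551.2 and 681.5 CPM in WT against 347.7 and 284.9 CPM in set1Δ, and STU2 had 203.3 and 271.9 CPM against 194.9 and 110.4 CPM. At 15 min STU2 stood the other way round, at 21.9 CPM in WT (95% counting interval 14.2 to 32.3) and 74.9 CPM in set1Δ (62.5 to 89.1). The other 7 had adjusted p-values from 0.141 for DYN1 to 0.893 for BIM1. Without the WT libraries of 105 and 120 min 0 of the 9 genes were called for a difference in course, and with all libraries but a spline of 4 degrees of freedom 0 were called as well (KIP3 0.139, STU2 0.284). The list of 8 G1/S genes had its early high at 30 min in WT (mean z-score 1.10) and at 15 min in set1Δ (1.53), while the histone list was highest at 30 min in both. The part of this shift of the G1/S list in the STU2 values at 15 min was not tested.

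KIP3 and STU2 were also the 2 genes of the 10 with the lowest share of tailed reads. Over all 20 libraries 39.1% of 2993 STU2 reads and 44.2% of 8186 KIP3 reads carried a tail, against a median of 83.4% for tested features, of which 6.98% and 9.33% had a lower share. KIP1 had 89.0%, BIK1 82.0% and STU1 80.5%, while DYN1 had 53.2%, with 14.7% of features lower. BIM1 had 75.6%, CIN8 73.5%, ASE1 72.8% and KIP2 56.3% of only 32 reads. In the WT library of 120 min the share was 25.3% for STU2 (95% Wilson interval 20.3 to 31.1) and 24.9% for KIP3 (21.7 to 28.5), against 32.2% of the whole library. On tailed reads alone, scaled within the table of tailed reads, WT still exceeded set1Δ at 105 and 120 min, with 348.3 and 348.5 CPM of KIP3 against 248.3 and 252.7 CPM, and with 129.0 and 141.2 CPM of STU2 against 93.3 and 80.5 CPM. The gap in KIP3 at 120 min was then smaller, and the difference in its course was no longer called.

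**Figure D4:**
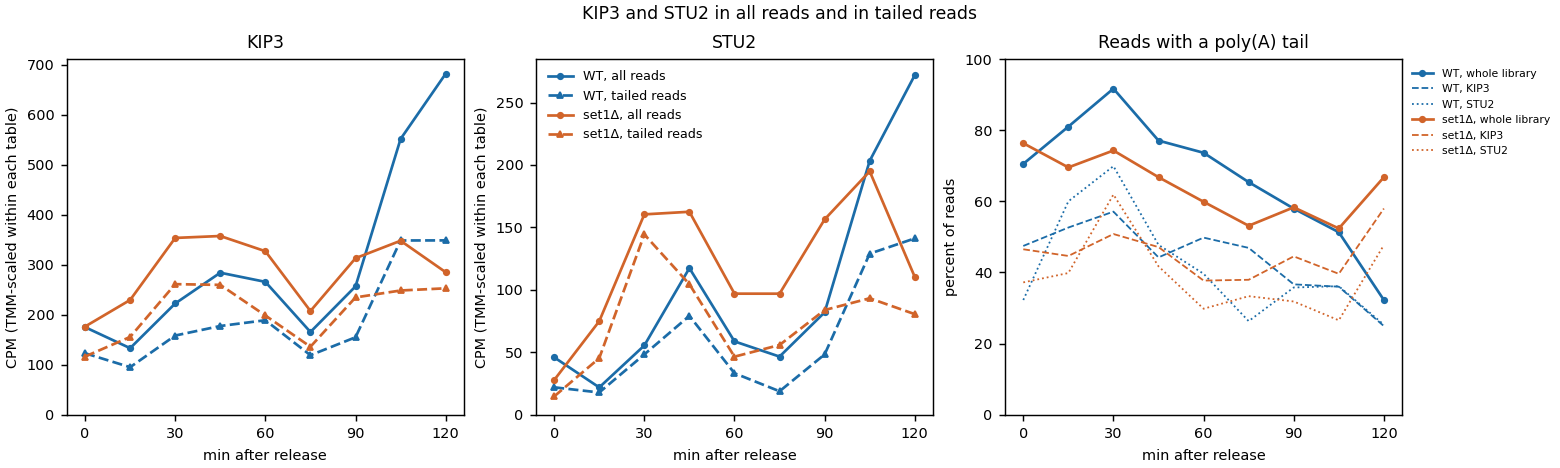
KIP3 (left) and STU2 (middle) in CPM from all reads (solid lines, circles) and from reads with a tail (dashed lines, triangles), and the percent of reads with a tail (right), against minutes after release in WT (blue) and set1Δ (orange). In WT the lines for all reads and for tailed reads lie farthest apart at 105 and 120 min, where the tailed share of the WT libraries is lowest.

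The arrest itself gave no called difference: at 0 min against the asynchronous culture, 0 of 9 genes passed, beside 4.6% of features called, 2.77% higher and 1.84% lower, and 1 gene had an unadjusted p below 0.05 (edgeR quasi-likelihood test, 1 pair per strain). DESeq2 called 0 as well. That gene was ASE1, at 11.3 and 2.97 CPM before and after arrest in WT and 6.49 and 2.58 CPM in set1Δ (log2 -1.72 ± 0.73 SE, adjusted p = 0.283). CIN8 (log2 -1.19 ± 0.62, adjusted p = 0.426) and STU2 (log2 -1.15 ± 0.57, adjusted p = 0.395) had the next largest differences, and STU2 went from 63.6 to 46.0 CPM in WT and from 99.5 to 27.8 CPM in set1Δ. DYN1 had -0.70, KIP1 -0.46, STU1 -0.45 and KIP3 -0.39, while BIM1 and BIK1 had 0.39 and 0.50. The median of the 9 was -0.46, against -0.02 over all tested features.

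Mean poly(A) tail lengths could be tested for KIP1, KIP3, STU1, STU2 and BIK1, which had values from at least 10 tailed reads in at least 8 libraries of each strain. KIP1 tails had a lowest, median and highest mean of 27.1, 30.9 and 37.3 nt in WT and 30.5, 39.4 and 42.0 nt in set1Δ. The KIP1 difference was 5.00 ± 1.66 nt (SE) and did not pass (p = 0.0118, adjusted p = 0.268, limma), in a table where 0.0934% of 4281 features were called. KIP3 tails had medians of 19.9 and 21.2 nt (difference 2.39 ± 1.28 nt, adjusted p = 0.432) and STU2 tails medians of 20.3 and 20.6 nt (0.46 ± 0.96 nt, adjusted p = 0.866). STU1 and BIK1 differed by 1.51 ± 1.24 nt and 0.62 ± 2.89 nt. No member changed in tail length over time, with adjusted p-values of 0.574 to 0.914 (limma), where 0.0941% of features were called.

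The other microtubule genes were read from lists of the same pathway, which were also chosen with earlier results of these data known. Of the minus-end directed kinesin-14 KAR3 and its partners CIK1 and VIK1, 2 of 3 were lower in set1Δ, beside 10.5% of features: KAR3 by a log2 difference of -1.27 ± 0.21 (adjusted p = 5.61e-04) and CIK1 by -1.92 ± 0.24 (adjusted p = 6.87e-05, edgeR quasi-likelihood test). The same 2 genes, which pheromone induces for nuclear fusion, were higher in arrest, KAR3 by 2.43 ± 0.45 and CIK1 by 3.71 ± 0.54 log2 units, beside 2.77% of features. Without 105 and 120 min KAR3 (-1.32 ± 0.27, adjusted p = 0.00703) and CIK1 (-2.003 ± 0.31, adjusted p = 0.00139) were still called. Of the 4 a-cell markers 3 were called lower in set1Δ, and 2 without those times. All 3 of the kinesin-14 list changed over time, beside 14.1% of features. Of 10 tested dynein and dynactin genes 0 were called between strains (1 without 105 and 120 min, PAC11, a dynein intermediate chain, named after its value was seen), 1 changed over time (NDL1, adjusted p = 0.00844) and 1 was higher in arrest (JNM1, 1.64 ± 0.44 log2 units, adjusted p = 0.0432). Of 5 tested midzone and spindle-positioning genes 0 were called in any of these 3 comparisons.

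The partners on which STU2 and KIP3 act, the tubulins, stood higher in set1Δ over all 20 libraries. Of 7 tested tubulin and nucleation genes, 5 were called higher and 0 lower, beside 8.44% and 10.5% of features: TUB1 by 0.54, TUB2 by 0.57, TUB3 by 0.56, TUB4 by 0.55 and the spindle pole body component SPC110 by 0.76 log2 units (adjusted p of 0.00366 to 0.0405, edgeR quasi-likelihood test). Without 105 and 120 min 4 were called, TUB1 by 0.68, TUB2 by 0.41, TUB3 by 0.57 and TUB4 by 0.51 log2 units, and SPC110 was not (0.69, adjusted p = 0.0541). TUB1 (adjusted p = 0.0114) and SPC98 (adjusted p = 0.00939) changed over time. Whether the differences of the tubulin genes and those of STU2 and KIP3 are unlike one another was not tested.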

How the data were processed

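PAT-seq libraries were analysed for 10 time points each of WT and set1Δ. The authors deposited read counts per feature (used as raw counts), a count of the tailed (polyadenylated) reads, and their mean tail length in nt. Bowtie, Bowtie2 2.2.5 and the build sacCer3, which is the assembly R64, are named in the submitters' processing notes without roles; the counting tool, its annotation and its strand setting are not given in the sources used here. Per the labels' protocols, 1 µg of total RNA entered a library and reads were 150 nt long.

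Features with a mean count of at least 10 were tested in R 4.3.3 with edgeR 4.0.16 (quasi-likelihood, robust, TMM) on time as a factor of 10 levels plus strain, in which equal time points pair the libraries, as the labels give them. Profiles were compared by a natural spline with 5 degrees of freedom, and tail lengths with limma 3.58.1, each value from at least 10 tailed reads. P-values were adjusted over all features by the Benjamini-Hochberg method and called below 0.05. Z-scores and correlations used log2(CPM + 1). Intervals are 95% Poisson or Wilson intervals and cover counting error only. The procedures were tested on simulated data. DESeq2 1.42.0, tailed reads alone and other settings were tried as alternatives; smooth curves within a strain, leaving out only the WT libraries of 105 and 120 min, tailed reads without those times, and correlations and list values without them were chosen after seeing the data.

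The tested members are named in the comparisons of reads, with the 3 features nearest in course to each gene called over time. Of the other microtubule lists, genes called for the strain difference are named, and up to 3 per list with the smallest p over time; JNM1 and PAC11 were named after their values were seen. The members and lists were chosen with earlier results of these data known. The upstream sequences of the other genes are not reported here.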

Additional observations from a re-analysis of the deposited data

Results flagged for a closer look

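The strain difference in course of KIP3 (adjusted p = 0.00662) and of STU2 (adjusted p = 5.86e-04, edgeR quasi-likelihood test) marks both as genes whose changes over time differed between WT and set1Δ. Neither was called without the WT libraries of 105 and 120 min (adjusted p = 0.749 and 0.152), nor with all libraries and a spline of 4 degrees of freedom (0.139 and 0.284). DYN1 at 120 min in WT, with 41.1 CPM, lay apart from the other 9 WT libraries, of which the highest had 15.9 CPM. It comes from the WT library with the lowest tailed share, 32.2%. The share of CIN8 reads with a tail at 15 min in set1Δ, 50%, lay below the other 9 set1Δ libraries, and rests on 7 of 14 reads (95% Wilson interval 26.8 to 73.2%). In all, 54 groups were examined for a library apart and 2 held one. A group was the 10 libraries of a strain or, for tail lengths, the 4 to 10 with at least 10 tailed reads. Chance alone marks about 1 in 20 groups, and the libraries of a group are different times of 1 culture, not replicates.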

How the results depend on the processing

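Of the 9 tested genes, 4 were called over time, 1 to 5 when each time point was left out in turn, and 3 to 5 under the other settings. The calls for a strain difference in level numbered 0, and 0 to 1 in the leave-outs (STU2 without 120 min, log2 0.72, adjusted p = 0.0132, edgeR). They numbered 2 (KIP3 and STU2) without 105 and 120 min, 2 without only those WT libraries, and 2 on tailed reads without those times. The difference in course was called for 2 genes, for 1 to 2 in the leave-outs, for 0 with a spline of 4 degrees of freedom, for 1 on tailed reads (STU2), for 0 without 105 and 120 min and for 0 without those WT libraries; the cause was not tested. Calls for arrest and tails were 0 under every setting run. Without the time term (no replicate block), no strain call was gained or lost, and KIP3 turned to -0.0587, BIM1 to -0.00106 and the tail difference of BIK1 to -1.04 nt. ASE1 turned to -0.0899 without 105 and 120 min and to -0.0766 without those WT libraries, BIM1 to -0.0860 on tailed reads, and the STU2 tail difference to -0.71 nt without 105 and 120 min. Leave-outs ranged from -0.0614 to 0.325 for ASE1, -0.0535 to 0.0994 for BIM1, -0.0024 to 0.16 for STU1 and -0.18 to 0.85 nt for STU2 tails; none of these was called.

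Over time, KIP1 ranged from an adjusted p of 0.0150 to 0.118 in the leave-outs, KIP3 from 0.00590 to 0.121, STU2 from 0.00599 to 0.0706 and BIM1 from 0.0260 to 0.0746. The count of all features with a difference in course, 628, fell to 113 on tailed reads, 150 without 105 and 120 min and 25 without those WT libraries. All features called for a strain difference numbered 960, and 627 without the time term; those called over time numbered 712, and 1977 for a spline within WT. Depth limits CIN8, ASE1, BIM1 and BIK1, with means of 12.9 to 20.3 reads in a library, and KIP2, with 1.6.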
